A study of Ovis aries with 16 samples.

Results

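Fetal sheep given ketamine before a period of hypoxia were compared with fetuses that had neither hypoxia nor ketamine, and the frontal cortex was the tissue measured. The comparison takes 7 of the series' 16 arrays. The 4 hypoxia + ketamine fetuses (HK1 to HK4) received ketamine at 3 mg/kg into the fetal circulation and then 30 min of low oxygen, brought about by lowering the oxygen breathed by the ewe. The 3 normoxia control fetuses (NC1 to NC3) were studied over the same times with normal oxygen and no ketamine. Cortex was taken 24 h after the start of the stimulus, which left 23.5 h of recovery. All were late-gestation sheep fetuses, and each array is 1 fetus. Most were twins, and the labels do not say which fetuses shared a ewe. Because hypoxia and ketamine both separate the groups, their parts in a difference cannot be told apart here. The 4 normoxia + ketamine arrays (NK) are quoted beside some results as a level under the drug alone, and the 5 hypoxia control arrays enter the normalization shared by all arrays and, where named, alternative fits over all 16 arrays.

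Ketamine is a dissociative anaesthetic that blocks the NMDA class of glutamate receptors. Low oxygen in the brain stabilises hypoxia-inducible factor, which raises the transcription of genes for glucose uptake and vessel growth, and it is followed over hours by an innate immune response in microglia and vessel walls. Toll-like receptors signal through NF-kB to cytokines, and interferons raise the machinery that displays peptides to T cells. In that machinery the immunoproteasome cuts proteins, and MHC class I heavy chains carry the peptides to the cell surface bound to beta-2-microglobulin.

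The probes on which the antigen presentation results turn are shown first. The array's 60-base probes were designed from sheep transcripts, and 5 of those for MHC class I transcripts held one identical 11-base run, given in capitals with its flanks. It occurred in no other of the 15008 probes, so these 5 probes are not independent measurements of 5 transcripts. Other MHC class I probes also shared sequence, up to a run of 53 bases between AJ874675 and AJ874681.
M34672: atatgcacttAGTAATGATGTcttatttca
M34673: atgtgcactgAGTAATGATGTcttataccc
M34674: acatgcactgAGTAATGATGTcttatttcc
M34675: atatgcactgAGTAATGATGTgttatttcc
M34676: gtatgcactgAGTAATGATGTcttatttcc
For single genes on which the results turn, and for 2 unnamed transcripts described last, the first 30 of the 60 bases are given.
B2M: tactctaacacaacccaagatagttaagtg
PSMB8: ttgccacattaaaggtgaacaaggtgattg
SELP: cagctttcccgaaaagacttgattataact
TNMD: ttgtgataatgtgaccatgtattggatcaa
TAC3: tgacatgcatgacttctttgtgggtctcat
EE770129: tttgctttttaaaaattggcccctacttcc
EE811132: gcataatatatcttactcctgggtatggtt

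Values are log2 of the normalized spot intensity, so that a difference of 1 is a 2-fold change, and differences are hypoxia + ketamine minus normoxia control. A probe was called at an unadjusted limma P under 0.05, the threshold of the study's methods. Of 15008 probes 676 were called, which is 4.5% and close to what that threshold gives with no difference at all. Of these 325 (2.17%) were higher and 351 (2.34%) lower, and 1 probe (0.00666%) passed after Benjamini-Hochberg adjustment. The calls were small, with a median of 0.24 among the higher probes and -0.27 among the lower. Only 14 probes (0.0933%) were called at 2-fold higher or more and 2 (0.0133%) at 2-fold lower or more. The groups did not overlap in 841 probes (5.6%), and 445 of these (2.97% of all) were also called. Among the 1007 genes that could be named, taken at 1 probe each, 60 (5.96%) were called, 34 higher (3.38%) and 26 lower (2.58%). The 43 called probes described by gene name below had limma adjusted p-values of 0.84 to 0.94, so each stands on its values in the 7 fetuses and on the threshold alone. The exact permutation test of 4 against 3 arrays, two-sided, cannot give less than 0.0571 and therefore cannot pass 0.05. It gave 0.0571 to 0.114 for these probes.

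**Figure D1:**
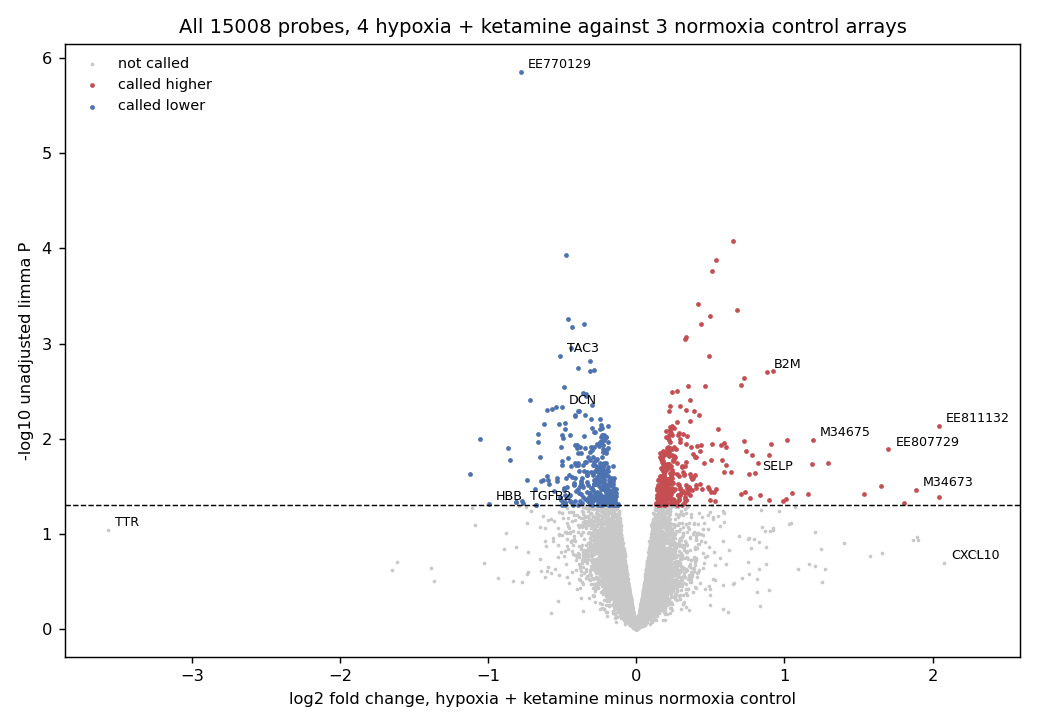
Each point is 1 of the 15008 probes, with the difference between hypoxia + ketamine and normoxia control (log2 intensity) on the horizontal axis and the negative log10 of the unadjusted limma P on the vertical axis. Called probes are coloured, 325 higher and 351 lower, and EE770129 stands alone at the top left with a difference of -0.78.

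Genes of antigen presentation were among the largest called increases of named genes whose groups did not overlap. B2M, which encodes beta-2-microglobulin, read 13.85, 14.23 and 13.73 in NC1 to NC3 and 14.63, 15.29, 14.60 and 14.76 in HK1 to HK4. Every hypoxia + ketamine fetus was above every control, and HK2 was the highest. The difference was 0.88 (SE 0.19), or 1.84-fold, and under ketamine alone the level was 14.02 ± 0.14 (SD, n = 4), near the control mean of 13.94 ± 0.26 (SD, n = 3). Within the first slide, which held NC1, NC2, HK1 and HK2, the difference was 0.92, and within the second, which held NC3, HK3 and HK4, it was 0.95. A second B2M probe read 0.92 higher but shared 59 of its 60 bases with the first. PSMB8, a catalytic subunit of the immunoproteasome, read 7.75, 7.99 and 7.67 in controls and 8.17, 9.05, 8.23 and 8.65 after ketamine and hypoxia. These groups did not overlap either, and the difference was 0.72 (SE 0.21), or 1.65-fold. The calls of B2M and PSMB8 held when any 1 of the 7 arrays was left out, with B2M differences of 0.73 to 1.03 and PSMB8 differences of 0.55 to 0.84. In a fit over all 16 arrays PSMB8 was no longer called. As the tissue was bulk cortex, a change in the number of cells of a type and a change in RNA per cell cannot be told apart for any gene.

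The MHC class I heavy chains were read by 16 probes, 15 of them well above background. This set was put together from the probe descriptions after values had been seen, and includes 1 probe for the related gene MR1. Of the 16, 4 were called higher and none lower, against 2.17% of all probes called higher, and 14 had a difference above 0 with a median of 0.87. M34675 read 13.66, 15.05 and 14.01 in controls and 15.29, 15.99, 15.01 and 15.41 in hypoxia + ketamine, a difference of 1.19 (SE 0.35). HK3 fell just under NC2 there, so the groups overlapped. M34676 read 14.45, 15.55 and 14.66 against 15.95, 16.00, 15.37 and 15.87, a difference of 0.91 (SE 0.27), again with HK3 below NC2. Both calls held without any single array, although 1 hypoxia + ketamine array was saturated at each probe, which limits the upper reading. M34673 read 10.79, 12.89 and 13.14 against 13.27, 15.53, 14.56 and 13.29, a difference of 1.89 that was 1.14 without NC1 and not called without NC1, HK2 or HK3. One of the OVAR probes read 12.12, 13.18 and 12.41 against 13.30, 14.66, 13.02 and 13.33, a difference of 1.01. That difference was 0.65 without HK2 and not called without NC1, NC3, HK1 or HK4. The other OVAR probe was 0.87 higher, or 0.45 without HK2, and was not called. The set leaned on single arrays. Without HK2 its median was 0.43, with 3 probes called higher and 1 lower, without NC1 it was 0.48 with 2 called higher, and without NC2 it was 1.19 with 7 called higher. The fetuses' MHC alleles were not typed, and a probe can read one allele better than another, so the part of genotype in these values was not tested.

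MHC class II, which presents peptides on professional antigen-presenting cells, was read by 11 probes found by their descriptions. None was called by limma at the unadjusted threshold, but 10 had a difference above 0, with a median of 0.39. The largest difference was 0.96 (SE 0.43), at M93433. Without HK2 the median was 0.18, and 1 probe was called higher without NC1 and 3 without HK4. The class II probe for OVAR-DQB1 read 12.44, 7.85 and 8.45 in controls and 12.08, 12.31, 9.33 and 7.93 in hypoxia + ketamine. It was high in some fetuses of either group and low in others.

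**Figure D2:**
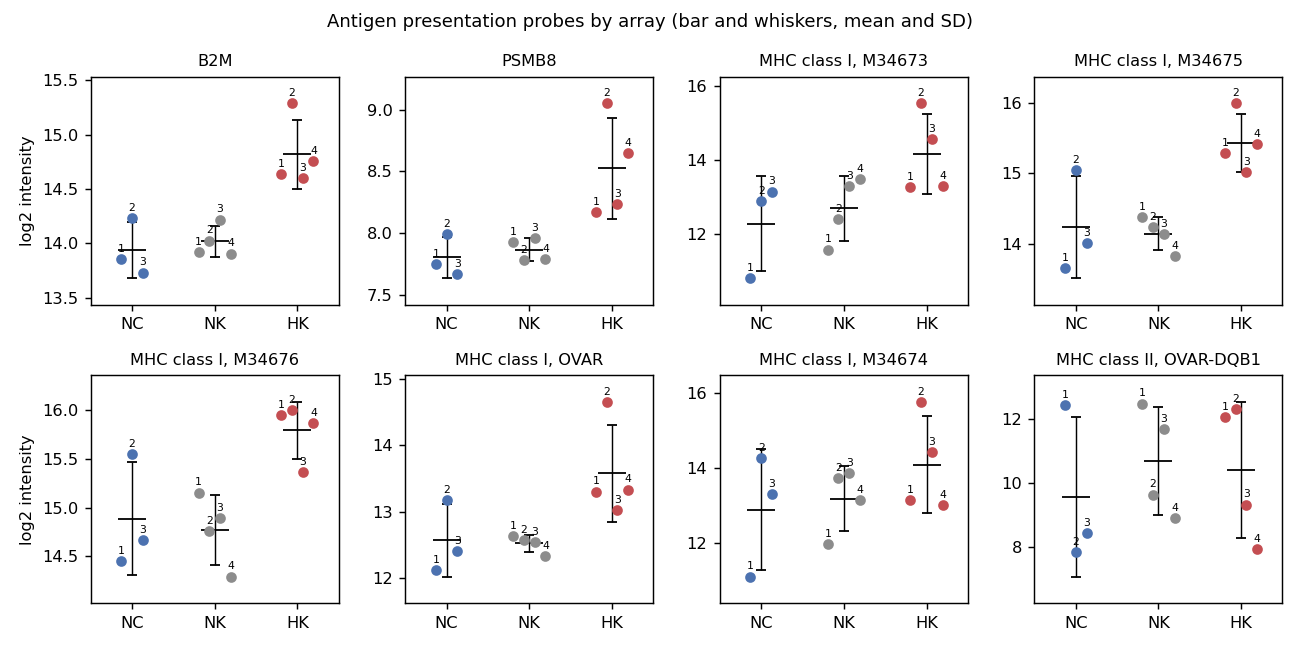
Log2 intensity of B2M, PSMB8, MHC class I probes and a class II probe in each normoxia control, normoxia + ketamine and hypoxia + ketamine array, with the mean and SD of each group. B2M and PSMB8 separate hypoxia + ketamine from normoxia control, M34675 and M34676 overlap by HK3, and the class II probe shows no grouping.

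B2M and PSMB8 were the called members of a list of interferon-stimulated genes. Of its 9 genes on the array these 2 were called higher, where 3.38% of all named genes were, and none lower. In all 7 were above 0, and the median was 0.32 against -0.0018 for all probes. Over the alternatives the list's median ran from 0.15 to 0.56. CXCL10, a chemokine that draws T cells, read 8.74, 9.51 and 7.77 in controls and 7.46, 13.55, 8.99 and 12.99 in hypoxia + ketamine. HK2 and HK4 were far above all controls while HK1 was below them. The difference of 2.08 (SE 1.48) was not called except without HK1, at 3.17, and was 1.14 without HK2. IRF1, a transcription factor of the interferon response, read 7.57, 7.49 and 7.37 in controls and 7.31, 9.39, 7.67 and 8.85 in the same order of fetuses, with HK2 and HK4 again the high ones and no call. ISG15, a ubiquitin-like interferon-stimulated protein, read 12.29, 10.99 and 10.66 against 10.07, 11.85, 5.92 and 10.83 and was not called, with HK3 alone far below the rest.

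Of 11 genes of endothelial adhesion and leukocyte trafficking 1, SELP, was called higher, where 3.38% of all named genes were, and the median was 0.03. Of 9 endothelial genes 1 (SLC2A1, below) was called higher and 5 were below 0, with a median of -0.06. SELP, or P-selectin, the endothelial and platelet receptor on which leukocytes roll, read 7.24, 6.93 and 6.96 in controls and 8.32, 8.25, 7.13 and 7.68 in hypoxia + ketamine. HK1 and HK2 were the highest and HK3 lay within the controls, so the groups overlapped at a difference of 0.80 that was not called without NC2, NC3, HK1 or HK2. The second SELP probe was not well above background in controls and was at least 1.52-fold higher, with a call that held without any single array but not in a fit over all 16 arrays. SLC11A1, a metal ion transporter of phagocyte vesicles, read 7.23, 7.26 and 7.19 against 8.44, 7.71, 7.51 and 7.63. All 4 were above the controls with HK1 the highest, the difference was 0.59 (SE 0.21), or 0.39 without HK1, and the call was lost without NC1, NC2 or NC3. The second SLC11A1 probe was not well above background in controls and at least 1.42-fold higher, a call lost without NC2, NC3 or HK3. Without HK1 the difference behind this bound was 0.31 rather than 0.50. CD14, the co-receptor that hands lipopolysaccharide to TLR4, read 7.92, 8.06 and 7.98 against 8.71, 8.31, 8.29 and 8.12, a difference of 0.37 that was not called without NC1 or NC3. Its other probe was 0.35 higher, with 0.60 within the first slide and 0.01 within the second. TLR1 and CSF2 were called higher, but no array of either group was well above background at these 2 probes, so no size is given. TRAF3, a signaling adaptor below Toll-like receptors, fell by 0.17, a call lost in each fit without 1 array other than HK4, and its other probe differed by -0.10 and was not called.

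Most of the Toll-like receptor and NF-kB genes were not called. Of 24 on the array, 2 were called higher (CD14, and TLR1 at background) and 1 lower, with a median of 0.04, and of 38 cytokine and chemokine genes 1 was called each way (CSF2, at background, and TGFB2), with a median of -0.0014, where 3.38% of all named genes were called higher and 2.58% lower. A list of genes measured by quantitative PCR or named in the study was looked up, and 16 of its 24 genes were on the array. CD14 was the single one called by limma at the unadjusted threshold, and the median of the 16 was 0.07. NFKBIA, the inhibitor that holds NF-kB in the cytoplasm and is itself an NF-kB target, read 10.60, 10.80 and 10.52 in controls and 11.80, 11.07, 10.66 and 11.09 in hypoxia + ketamine. HK3 lay within the controls and HK1 was the highest. The difference of 0.52 (SE 0.24) was 0.30 without HK1 and was not called except when HK3 was left out. TLR2 differed by 0.10, TLR4 by 0.05, MYD88 by -0.07, TNF by 0.14, IL1B by 0.07 and IL6 by -0.20, none called, although IL6 was called without NC3 or HK3. Of 6 neutrophil genes none was called but all were above 0, with a median of 0.15, which was 0.52 with 75th percentile scaling. Of 10 microglia and macrophage genes 1 (CD14) was called higher, against the same 3.38%, and 6 were above 0 and 4 below.

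In a list of hypoxia-inducible genes, which also holds the subunits of the factor itself, 3 of 23 were called higher, where 3.38% of all named genes were, and none lower, with 14 above 0, 9 below and a median of 0.05. HIF1A, the oxygen-regulated subunit of hypoxia-inducible factor, read 7.71, 7.86 and 7.79 in controls and 7.92, 8.00, 7.96 and 8.14 in hypoxia + ketamine. The groups did not overlap, and the difference of 0.22 (SE 0.07) was not called without NC1. A second HIF1A probe was 0.15 higher and not called. ARNT, its constitutive partner, differed by 0.17, a call lost without NC1, NC2, HK1 or HK4, and its other probe, which shares 59 of 60 bases, was not called, with none of the 7 arrays well above background. SLC2A1, the glucose transporter GLUT1 of the blood-brain barrier, read 11.13, 11.32 and 11.28 against 11.94, 11.40, 11.48 and 11.48. All 4 exceeded the controls, HK1 by the most, and the difference of 0.33 (SE 0.14) was 0.21 without HK1 and was not called without NC1, NC2, NC3 or HK4. Of 13 blood-brain barrier genes SLC2A1 was the one called, against 3.38% of all named genes called higher, and 12 were above 0 with a median of 0.05.

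Of 11 immediate early genes 3 were called higher, where 3.38% of all named genes were, 7 were above 0 and 4 below, and the median was 0.05. CCN2, or connective tissue growth factor, a matricellular protein, read 10.23, 10.19 and 10.07 in controls and 10.63, 10.61, 10.23 and 10.63 in hypoxia + ketamine. HK3 sat level with NC1 and the other 3 were near each other, at a difference of 0.37 (SE 0.11) whose call held without any single array but not in a fit over all 16 arrays. The normoxia + ketamine mean at this probe was 10.39, between 10.16 in controls and 10.53 in hypoxia + ketamine. Its difference from controls was not tested here. A second CCN2 probe was 0.16 higher and not called. CCN1, of the same family, ranged from 7.47 to 7.68 in controls and from 7.71 to 8.10 in hypoxia + ketamine, a difference of 0.33 not called without NC2 or NC3, and its other probe was 0.30 higher and not called. ZFP36, which speeds the decay of cytokine mRNAs, was 0.15 higher, a call lost without NC1, NC3, HK1 or HK3, and its other probe, not well above background on any of the 7 arrays, was not called.

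The remaining increases came from several roles. TNMD, or tenomodulin, a membrane glycoprotein of tendon and connective tissue, read 8.39, 8.37 and 8.34 in controls and 8.90, 8.90, 9.46 and 8.54 in hypoxia + ketamine. The groups did not overlap and HK3 was the highest. The difference was 0.58 (SE 0.19) and at a second probe 0.51, and both calls held without any single array and in each other setting run for named genes. STAR, which carries cholesterol into mitochondria for steroid synthesis, read 6.69, 6.82 and 6.79 against 7.20, 7.18, 7.08 and 7.29. Its groups did not overlap and its difference of 0.42 (SE 0.07) had the smallest P among the named calls at 3.86e-04 (limma adjusted p = 0.842), but the controls were not well above background, so it is at least 1.32-fold higher. The other STAR probe shares 59 of 60 bases, was not well above background on any array of these groups, and was not called. CDKN1B, the cyclin-dependent kinase inhibitor p27, read 8.77, 8.76 and 8.76 against 8.90, 9.24, 8.92 and 9.08, a difference of 0.27 (SE 0.09) called without any single array but not in a fit over all 16 arrays. Its other probe shares 59 of 60 bases and was 0.21 higher and not called.

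MTHFD2, of mitochondrial folate metabolism, was 0.37 higher and 0.25 without HK1, its call was lost without NC1, NC2, NC3 or HK2, and a second probe was 0.23 higher and not called. Smaller increases were called in GALR1, a galanin receptor, at 0.21, in the mitochondrial nuclease ENDOG at 0.20 and in SLC25A5, the mitochondrial ADP/ATP carrier, at 0.17 (0.11 without NC1), and each of these 3 was lost without at least 4 of the 7 arrays in turn. Means in controls, normoxia + ketamine and hypoxia + ketamine were 7.67, 7.85 and 7.88 for GALR1. They were 10.655, 10.77 and 10.85 for ENDOG and 14.56, 14.73 and 14.73 for SLC25A5. The differences of normoxia + ketamine from controls were not tested here.

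**Figure D3:**
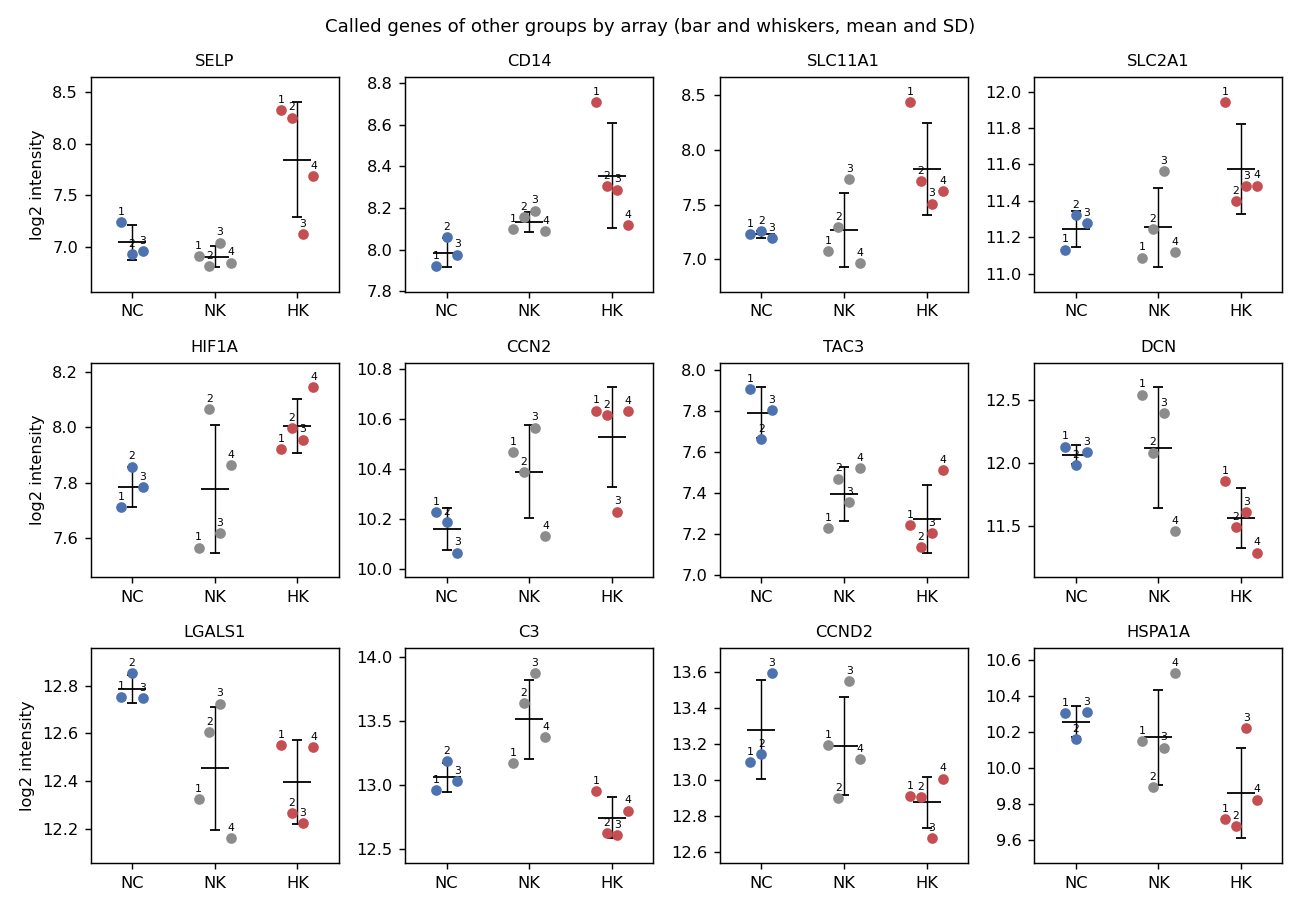
Log2 intensity of called genes in each normoxia control, normoxia + ketamine and hypoxia + ketamine array, with the group mean and SD. SLC11A1, SLC2A1, HIF1A, TAC3, DCN and LGALS1 do not overlap between hypoxia + ketamine and normoxia control, whereas SELP and HSPA1A do.

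Among the decreases, TAC3 kept its call in each setting run for it. TAC3 encodes the precursor of neurokinin B, a tachykinin neuropeptide, and read 7.91, 7.66 and 7.81 in controls and 7.24, 7.14, 7.21 and 7.51 in hypoxia + ketamine. All 4 were below every control, with a difference of -0.52 (SE 0.10), or 0.698 of the control level, and -0.60 to -0.46 without single arrays. The normoxia + ketamine arrays were at 7.39 ± 0.13 (SD, n = 4), also below the controls, and that difference was not tested here. Of 33 neuropeptide, hormone and receptor genes 2 were called lower and 1 higher, where 2.58% of all named genes were called lower and 3.38% higher. The other called decrease was HTR2A, the serotonin 2A receptor, which was not well above background in hypoxia + ketamine and at least 1.13-fold lower, a call lost without NC2 or NC3. Of 11 glutamate, GABA and synaptic genes none was called by limma at the unadjusted threshold, and 8 were below 0. GRIN1, the obligatory subunit of the NMDA receptor that ketamine blocks, read 9.46, 9.67 and 9.82 in controls and 9.54, 9.07, 9.17 and 9.52 in hypoxia + ketamine. HK1 and HK4 lay within the controls, and the difference of -0.33 (SE 0.14) was not called.

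Extracellular matrix genes had calls in both directions, 2 higher (CCN1 and CCN2) and 3 lower of 23, where 3.38% and 2.58% of all named genes were, and 14 had a difference below 0. DCN, or decorin, a small proteoglycan of connective tissue, read 12.13, 11.98 and 12.09 in controls and 11.86, 11.50, 11.62 and 11.29 in hypoxia + ketamine. The groups did not overlap, and the difference was -0.50 (SE 0.13) and at a second probe -0.34 (SE 0.08), both called without any single array but not in a fit over all 16 arrays. LGALS1, or galectin-1, a glycan-binding protein of mesenchyme and glia, read 12.75, 12.85 and 12.75 against 12.55, 12.27, 12.22 and 12.54, a difference of -0.39 (SE 0.10) also called without any single array but not with 75th percentile scaling. A second LGALS1 probe differed by -0.29 and was not called. At the first LGALS1 probe the normoxia + ketamine mean of 12.45 was also below the lowest control, a difference that was not tested here. BGN, or biglycan, fell by 0.18, a call lost in each fit without 1 array other than HK1. TGFB2, a growth factor, read 12.51, 11.40 and 11.76 against 11.32, 10.45, 11.16 and 11.57. The groups overlapped at -0.77, the difference was -0.46 without NC1, and the call was lost without NC1, NC3, HK1, HK2 or HK3.

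Decorin is also a marker of the meninges. Of 6 meninges genes DCN itself was called lower, where 2.58% of all named genes were, and 5 were below 0. Of 4 choroid plexus genes none was called and all 4 were below 0, with a median of -0.79. Over the alternatives the list's median ran from -0.98 to -0.48. TTR, or transthyretin, is the defining product of the choroid plexus. It read 16.00, 15.54 and 9.33 in controls and 12.82, 7.93, 8.38 and 11.10 in hypoxia + ketamine. NC1 and NC2 were thus far above the rest, while NC3 lay within the hypoxia + ketamine range. The part of these tissues in the decreases was not tested. IGF2, a growth factor, read 11.98, 11.51 and 12.36 against 11.98, 11.18, 10.34 and 9.85 and was not called at -1.11 (SE 0.48).

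Stress, cell cycle and other genes completed the decreases. Of 10 heat shock and chaperone genes 2 were called lower, where 2.58% of all named genes were, none was called higher, and 7 were below 0. HSPA1A, the inducible HSP70, read 10.30, 10.16 and 10.31 in controls and 9.72, 9.68, 10.22 and 9.83 in hypoxia + ketamine. HK3 lay within the controls, and the difference of -0.40 was not called without NC1 or NC3. HSPA5, the endoplasmic reticulum chaperone BiP, differed by -0.30 and by -0.19 without NC3, a call lost without NC1, NC3, HK2, HK3 or HK4. C3, the central complement protein, read 12.96, 13.19 and 13.03 against 12.95, 12.62, 12.61 and 12.80, with all 4 below the controls though HK1 barely so. The difference was -0.31 (SE 0.10), lost without NC2, a second probe was called at -0.22, and the level under ketamine alone was 13.52.

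CCND2, or cyclin D2, which drives entry into the cell cycle, read 13.10, 13.14 and 13.60 in controls and 12.91, 12.91, 12.68 and 13.01 in hypoxia + ketamine, a difference of -0.41 (SE 0.14) that was called without any single array but was -0.25 without NC3 and not called with 75th percentile scaling. CDKN1C, the inhibitor p57, differed by -0.26, a call lost without NC1 or NC2. GSTA1-1, a glutathione transferase, differed by -0.50 and by -0.32 at a second probe. The first was lost without NC1, at -0.33, and the second without NC1, at -0.20, or without HK2 or HK4. The translation initiation factor EIF4G1 fell by 0.31, the Wnt receptor FZD2 also fell by 0.31, and both were called in just 2 of the 7 fits that left an array out. HBB, or beta-globin, read 12.39, 12.00 and 12.23 against 11.74, 11.78, 11.38 and 9.95 at a probe designed from an expressed sequence tag, 0.501 of the control level and a call lost without NC1, NC2, NC3 or HK3. Without HK4 the difference was -0.58 and called, and another HBB probe differed by -0.02.

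**Figure D4:**
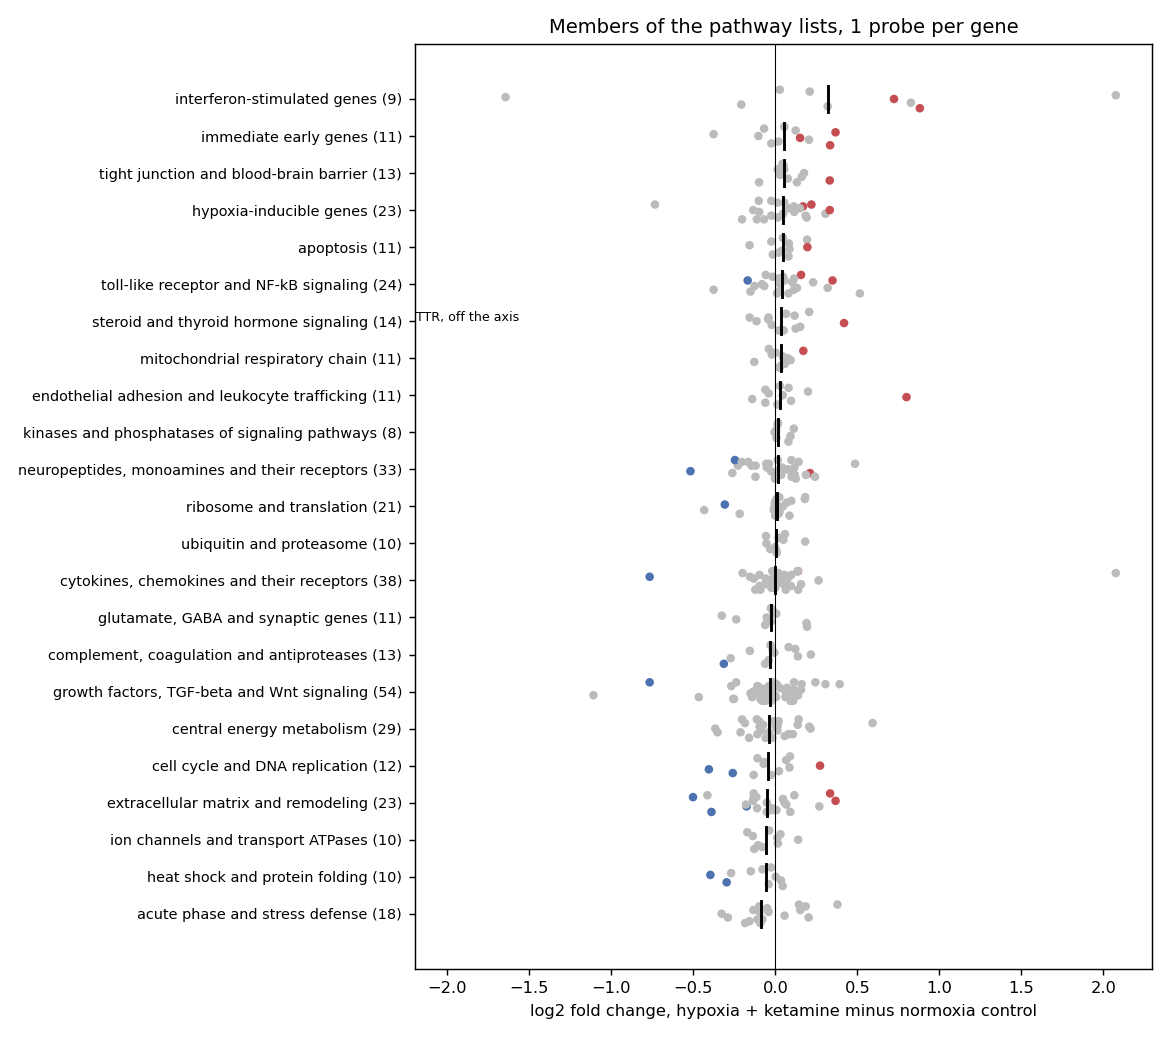
Each point is 1 gene of a pathway list, placed by its difference between hypoxia + ketamine and normoxia control (log2 intensity), with red and blue marking calls and a black bar at the list's median. The medians lie near 0 except for interferon-stimulated genes at 0.32, and TTR lies beyond the axis.

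Several groups held no called gene by limma at the unadjusted threshold, or 1. Of 29 genes of central energy metabolism 17 were below 0 with a median of -0.04, and of 18 acute phase and stress defense genes 12 were below 0 with a median of -0.09. Of 10 ion channel and transport ATPase genes 6 were below 0, and of 10 ubiquitin and proteasome genes, a list that does not include PSMB8, 6 were above. Of 54 growth factor and receptor genes 34 were below 0 and 1, TGFB2, was called lower, where 2.58% of all named genes were.

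A few cell type markers, chosen after their values were seen, were read beside the tissue label. They cannot tell frontal cortex from other brain tissue. TTR of the choroid plexus, given above, was far above the rest in NC1 and NC2. SST, the peptide of a class of cortical interneurons, was at 15.58 to 16.00 on the 7 arrays and NPY at 12.71 to 13.67, and AQP4, the water channel of astrocyte endfeet, was at 15.03 to 15.63. None of 3 neuron and 6 astrocyte genes was called by limma at the unadjusted threshold. No oligodendrocyte gene of the list was matched on the array. In a principal component analysis of the 7 arrays HK2 stood apart, at 28.2 on a first component that held 29.9% of the variance and on which the others ranged from -9.62 to 5.84. Spots well above background made up 69.2% to 76.9% in controls and 70.9% to 75.9% in hypoxia + ketamine. After background correction and before normalization, the median log2 intensity was 9.46 in NC2 and 10.11 in HK3. On the other arrays of the comparison it was 7.86 to 8.08. The median spot signals before correction were alike, at 248.5 in NC2 and 242.8 in HK3. The part of this in the values of NC2 and HK3 was not tested, but without background subtraction 36 of the 43 named calls remained.

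Single hypoxia + ketamine fetuses were also compared with the controls. A count, chosen after seeing the data, was made in each array of probes at least 1 log2 unit above the highest control. It was 41 in HK1, 87 in HK2, 21 in HK3 and 41 in HK4, against 15, 11, 18 and 11 in the 4 normoxia + ketamine arrays. All 4 counts exceeded all 4 of ketamine alone (two-sided exact permutation p = 0.0286, adjusted over 2 directions 0.0571). Because the count was chosen after seeing the data, this test cannot decide whether the groups differ. It also does not measure how far the hypoxia + ketamine fetuses differed from each other. The exact permutation p was also 0.0286 with 1.5 units and without NC1 or NC3, but 0.0857 without NC2, 0.171 with a margin of 0.5 units, 0.143 with 75th percentile scaling and 0.0571 on the authors' processed values. Counts below the lowest control by the same margin were 5, 28, 10 and 4 against 12, 0, 11 and 4 (exact permutation p = 0.6). The exceeding probes were mostly those of 1 fetus. Of them 131 exceeded in 1 hypoxia + ketamine array, 22 in 2, 5 in 3 and none in all 4. The same split was not counted for normoxia + ketamine. Some exceeding probes, such as those of FLT1 and AQP9, were well above background on just 1 hypoxia + ketamine array. HK2 and HK4 shared 17 and HK1 and HK2 shared 12, while HK3 shared 2 with HK2 and none with HK1 or HK4.

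The genes in HK2 and HK4 included the cathelicidins, antimicrobial peptides stored in neutrophil granules, beside CXCL10 and IRF1. CATHL3 read 7.95, 9.30 and 8.77 in controls and 8.89, 11.98, 8.58 and 12.83 in hypoxia + ketamine, and BAC5 read 8.14, 9.51 and 8.97 against 8.69, 11.85, 8.77 and 12.81. In both, HK1 and HK3 lay within the controls. LYZ, or lysozyme, exceeded in HK2 alone, at 9.24 against 6.59 to 6.87 in controls. In HK1 the exceeding genes included FGF2, a growth factor of glia and vessels, at 10.85 against 9.34 to 9.73 in controls while HK2 was at 9.02, and PDXK, the kinase that activates vitamin B6, at 11.62 against at most 10.40. HK3 held TNMD, and HK4 held LTF, or lactoferrin, at 9.29 against 7.85 to 8.12.

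**Figure D5:**
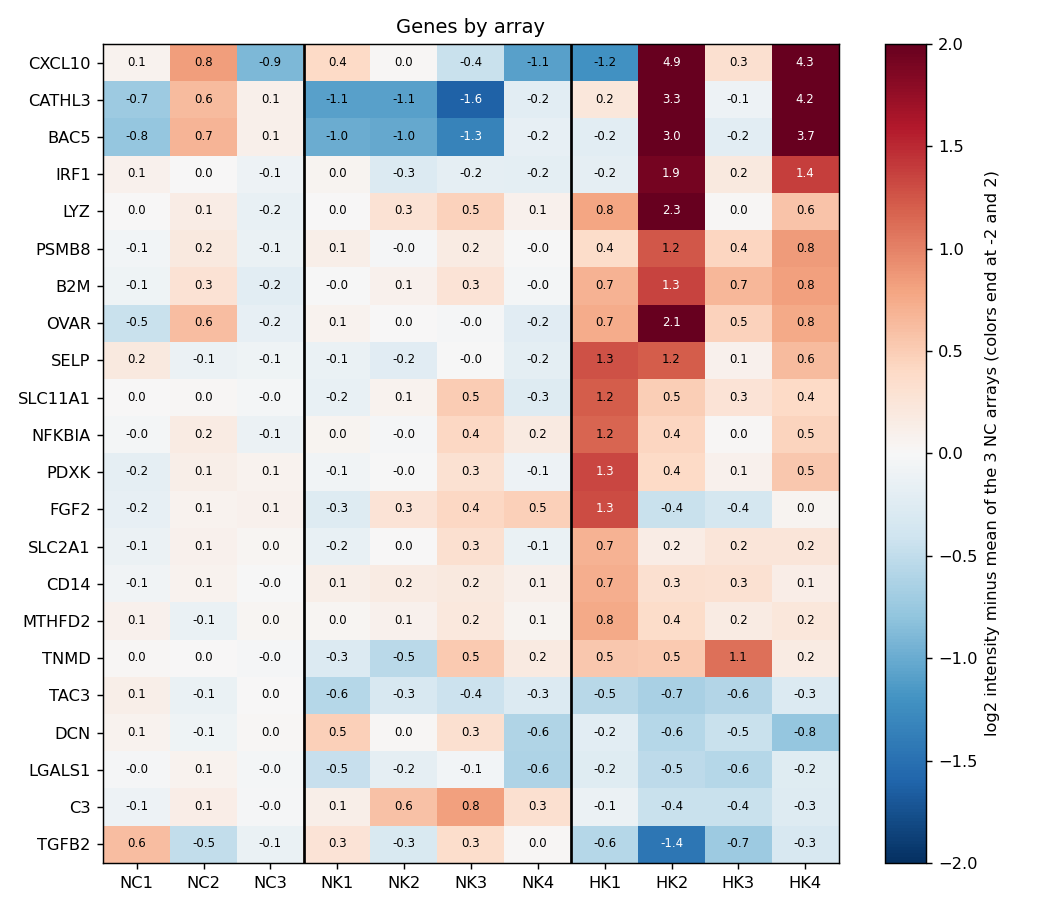
Difference of each array from the normoxia control mean (log2 intensity) for 22 genes in the normoxia control, normoxia + ketamine and hypoxia + ketamine arrays. CXCL10, IRF1 and the cathelicidins are high in HK2 and HK4, FGF2 and PDXK in HK1, and TNMD most in HK3.

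Most probes, 13352 of 15008, carry no gene name here and are known by the transcript from which they were designed. EE770129 was the one probe past adjustment. It read 8.31, 8.35 and 8.25 in controls and 7.48, 7.59, 7.52 and 7.50 in hypoxia + ketamine, with spreads of 0.05 in either group. All 4 were well below all controls, at -0.78 (SE 0.06), or 0.582 of the control level (limma adjusted p = 0.0209), and the normoxia + ketamine arrays were at 8.07 ± 0.28 (SD, n = 4). Its difference stayed between -1.41 and -0.68 in 22 other fits, and its adjusted p was under 0.05 in 8 of them and from 0.0131 to 1.00 in all. No fit that left out an array kept it past adjustment.

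Among transcripts without a gene name whose groups did not overlap, EE811132 had the largest called increase. It read 7.89, 8.42 and 7.79 in controls and 9.73, 10.99, 8.62 and 10.95 in hypoxia + ketamine. HK2 and HK4 were again the highest, and the difference was 2.04 (SE 0.56), or 4.12-fold, called without any single array. EE807729 read 12.63, 14.94 and 12.65 against 15.07, 15.13, 15.11 and 15.11, a difference of 1.70 that was lost without NC1 or NC3, as NC2 was nearly as high as the treated fetuses. The normoxia + ketamine arrays also varied widely at EE807729, from 12.63 to 14.86. Among the largest called decreases whose groups did not overlap was TC7809 at -1.12, which was lost without HK1. Its difference ran from -1.59 to -0.60 over single arrays left out. Others, called without any single array like EE770129, were EE751760 at -1.06, EE780570 at -0.87 and FE036440 at -0.85. FE036440 was -0.51 without NC1.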

How the data were processed

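Frontal cortex RNA of 16 fetuses was read on 1-colour Agilent sheep arrays of 15744 spots, 1 array per fetus. The deposited scanner files hold each spot's mean and background intensity on a linear scale, written by the authors' scanner software, Feature Extraction 10.1.1.1 per the file headers. The authors' own table of processed log2 values, made with limma under R 2.15.1 per the submitters' notes, was an alternative. Here intensities were background-corrected (normexp, offset 50) and quantile-normalized over the 16 arrays with limma 3.58.1 in R 4.3.3. Control spots (536) and 222 outlier spots were left out, replicate spots averaged, and 15008 probes fitted (lmFit, eBayes) on the 7 arrays of the comparison. Of these, 56 lacked a value on at least 1 array. P-values are those of limma unless named as exact permutation. Further steps used Python 3.11.15 with numpy 2.4.6, pandas 2.3.3 and matplotlib 3.10.9. The fit was tested on simulated data.

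Names came from the files or by accession, gene ID, symbol or a hand table of older names (103 probes, made after values were seen) through RefSeq's sheep genes, for 1656 probes. No gene coordinates are given. The genes named were, among called probes that did not overlap between groups and were well above background in at least 1 group, the 12 largest differences each way, together with all called members of the pathway lists and genes measured by quantitative PCR or named in the study. Uncalled genes given as list examples, cell type markers or genes high in single fetuses were chosen after their values were seen. The rule also named 1 probe that is not reported here. The groups, lists and tests were chosen with earlier results of these data known. A probe not well above background on any array of a group has only a bound, given as "at least". Where this held in both groups, no size is given. The depth of an array is not counted in reads, so the number of arrays limits the precision, and p-values measure the spread between fetuses. Alternatives were the normalization, background, filter, slide, replicate number and each array left out.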

Additional observations from a re-analysis of the deposited data

Results flagged for a closer look

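In groups of 4, a fetus was set apart where its gap to the nearest other, divided by the range of the group, was above Dixon's critical value. Of the 58 named probes 3 met this in hypoxia + ketamine, and of all probes 6.57% did, where chance gives about 1 in 20. SLC2A1 was at 11.94 in HK1 against a median of 11.48 in the other 3 fetuses. CCN2 was at 10.23 in HK3 against 10.63, so that HK3 lay at the level of the controls. TNF was at 7.78 in HK2 against 7.01. Their causes were not tested.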

How the results depend on the processing

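The count of called probes, 676, stayed within 1.5 times under the other normalizations, backgrounds and filters, the slide block and each array left out, with these exceptions. Without NC3 406 were called (176 higher, 230 lower) and without HK1 535 were lower. Over single arrays left out the count ran from 406 to 926 (176 to 407 higher, 230 to 535 lower). With 75th percentile scaling 216 probes were lower, after Benjamini-Hochberg adjustment 1 was called (1 lower, 0 higher), and with 1 probe per named gene 60 were called (34 higher, 26 lower), as fewer were tested. Normoxia control and hypoxia + ketamine share replicate numbers, but same-numbered arrays did not deviate together (r of -0.0022, 0.0122 and 0.0115). With so few such pairs this check cannot exclude pairing, and the labels do not say which fetuses shared a ewe. With the replicate block 620 probes were called, and 26 of the 43 named calls remained. With the slide block 34 of the 43 remained. Fewest remained in the fit over all 16 arrays, 15 (1 hypoxia control array in it has labels that partly conflict on its group), and without NC1, 19, NC3, 21, or NC2, 26. No named call changed direction in any setting run. Of the 43, 6 kept the call in all of them (B2M at both probes, STAR, TAC3 and TNMD at both probes). With 75th percentile scaling 10 of 34 list medians moved beyond the spread between replicates, among them neutrophils at 0.52, and without NC2 5 did. The median of interferon-stimulated genes ran from 0.15 to 0.56.

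Uncalled genes near 0 changed sign. IKBKB was 0.014 with the replicate block, and PRKACA was -0.0016 with the slide block and -0.014 without background subtraction. Over single arrays left out BAX ran from -0.017 to 0.10, IKBKB from -0.075 to 0.014, IL1B from -0.023 to 0.18, PRKACA from -0.018 to 0.077, TLR4 from -0.0076 to 0.090 and TNF from -0.060 to 0.22.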
